A study of Nicotiana tabacum with 9 samples.

Results

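Light 200 and light 100 stand for cigar tobacco grown at 200 and 100 µmol m-2 s-1, and the comparison described is how leaf transcripts differed across this doubling of light. Cigar tobacco is a form of Nicotiana tabacum, an allotetraploid whose leaves are cured for cigars. All plants were of the variety H382, and leaves were sampled at the seedling stage, with no treatment other than light named in the labels. Each intensity had 3 biological replicates with 1 RNA library each, so 6 of the 9 libraries of the study entered the comparison. The other 3 came from plants at 50 µmol m-2 s-1 (light 50), and are used only to estimate the spread and in the comparison of doublings near the end. All 123 of the 123 genes in the deposited expression table are described. How long the plants stood at each intensity, and whether leaves of several plants were pooled, is not stated in the labels.

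Light drives photosynthesis through antenna proteins, which bind chlorophyll and pass its excitation to photosystems I and II in the thylakoid membrane. Leaves in stronger light commonly carry less antenna per reaction centre, store more starch, and make phenylpropanoids such as flavonols and anthocyanins, which absorb ultraviolet and visible light. Early light-induced proteins, the xanthophyll cycle and peroxide-removing enzymes limit damage when more light is absorbed than can be used.

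The libraries held 15022764, 14253291 and 16061435 reads in all at light 200 and 14887372, 13743796 and 16603534 reads at light 100. Levels below are CPM, counts scaled to the same library total, which compare a gene between libraries. FPKM, which also divides by gene length, is used to compare genes. Counts of these genes in the 6 libraries ranged from 16 to 132955 reads. Leaf identity was carried by the antenna and photosystem genes, whose 19 members summed to 35844, 36570 and 30399 CPM at light 200 and 43299, 47357 and 46821 CPM at light 100. Product names of other tissues matched 3 genes, a berberine bridge enzyme, a lipid-transfer protein and a beta-tubulin, whose levels summed to 53.9, 62.2 and 54.9 CPM at light 200 and 76.7, 66.0 and 83.0 CPM at light 100. The sum hides opposite changes: the berberine bridge enzyme rose, while the lipid-transfer protein and the beta-tubulin fell. The lipid-transfer protein is named only as non-specific, so its name points to no tissue. In whole leaves, fewer cells of a type and less RNA per cell cannot be told apart.

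At light 200, transcripts of phenylpropanoid and flavonoid synthesis, of starch metabolism and of 5 of 7 glycosyl- and acyltransferase genes were higher than at light 100. Transcripts of antenna proteins, photosystem I subunits and most other thylakoid proteins were lower with library totals. Of the 123 genes, 42 were higher (34.1%) and 42 were lower (34.1%) by edgeR's quasi-likelihood test at an adjusted p of 0.05, 84 in all (68.3%). At an unadjusted p under 0.05 the numbers were 43 and 47. The 3 light 200 libraries lay above all 3 light 100 libraries for 44 genes (35.8%) and below all of them for 44 (35.8%), 71.5% in all. Changes were mostly modest: 9 genes rose and 5 fell by more than 2-fold, the median log2 change was 0.57 among genes called higher and -0.46 among genes called lower, and it was -0.11 over all 123. The table is not a sample of the genome. The authors' deposited table marks 122 of its genes as changed between light 50 and light 200, so its genes were chosen on these libraries. The p-values and their adjustment over 123 genes take no account of that choice, which shares the light 200 libraries with this comparison. Adjusted p-values below, and groups whose members all moved 1 way, are therefore not unbiased evidence of change. Every group of genes below is to be read against the percentages above.

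The balance of rises and falls depended on how the libraries were scaled. With the authors' size factors 26 genes were higher (21.1%) and 48 lower (39%), 60.2% in all, with TMM factors 43 and 36, with RLE factors 45 and 17, and with each library centred on its median gene 14 and 56. RLE moved the all-gene median by 0.14 and median centring moved it by -0.33, on the log2 scale. TMM, RLE and median centring take their factors from these 123 chosen genes, so they treat chosen genes as unchanged on the whole. They show how far calls depend on the scaling, and which scaling is right was not tested. A scaling factor acts on all genes of a library alike, so distances between gene groups hardly depend on it by construction. Relative to the median of all 123 genes, the phenylpropanoid group stood at 1.05, the starch group at 0.65 and the antenna group at -0.30 with library totals. Under all 5 scalings 14 genes were called higher and 17 lower, and 13 and 12 were called under all 17 alternatives, which also left out single libraries. Without light 100 replicate 3 the counts were 22 higher and 21 lower, and without light 200 replicate 1 they were 25 and 29.

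**Figure D1:**
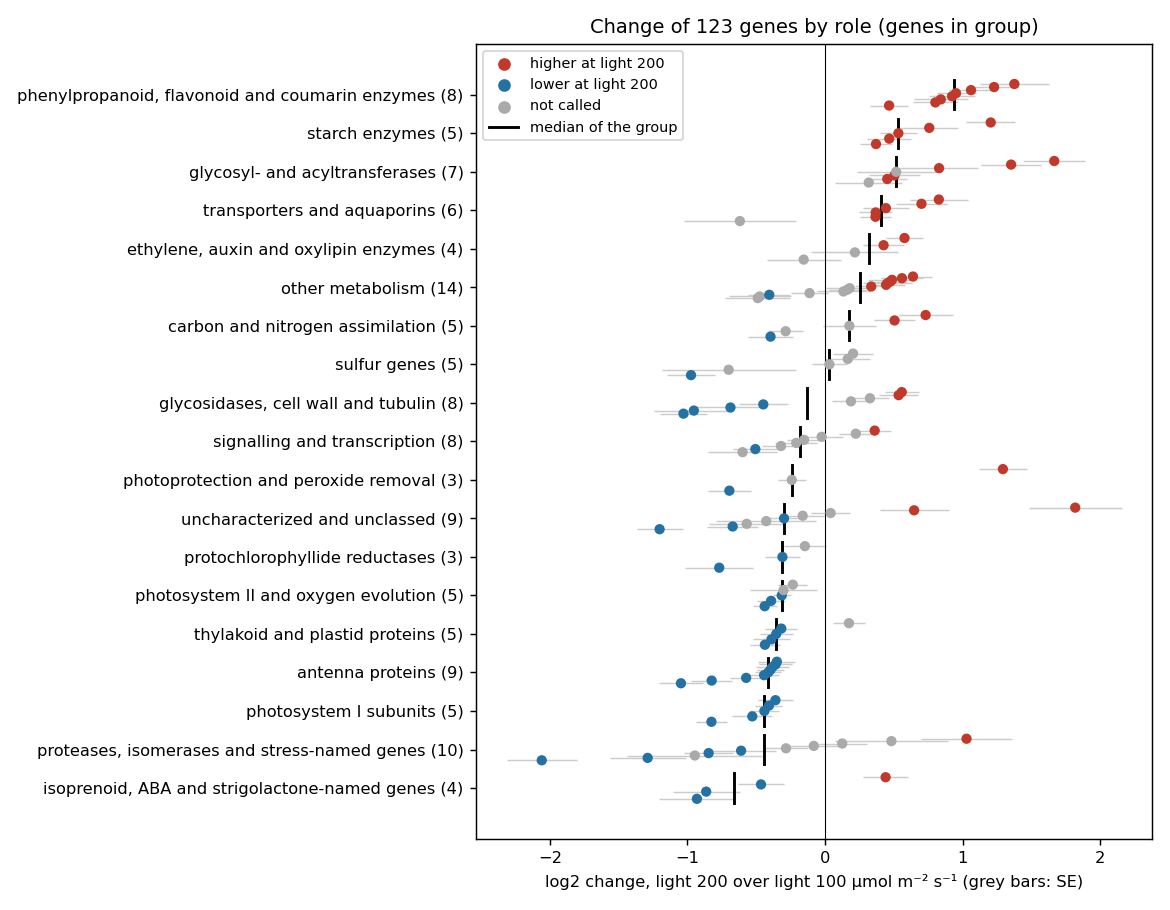
Log2 change of each of the 123 genes at light 200 over light 100 (horizontal axis, library totals), in 19 groups by role ordered by median, with the number of genes in brackets. Dots are genes, coloured by call, grey bars are standard errors and black ticks are group medians, which run from 0.94 for phenylpropanoid, flavonoid and coumarin enzymes to -0.66 for isoprenoid, ABA and strigolactone-named genes.

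**Figure D2:**
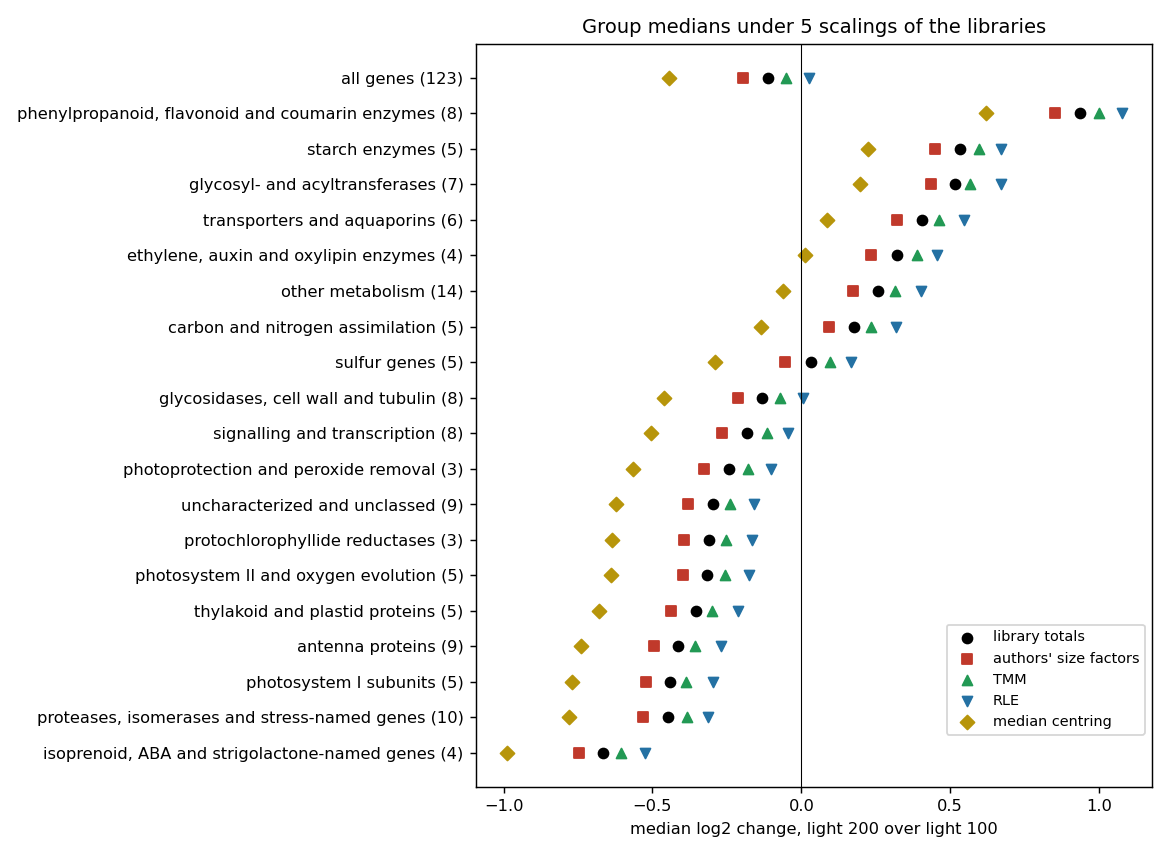
Median log2 change, light 200 over light 100, of each group of genes under 5 scalings of the libraries, with all 123 genes in the top row. Each scaling slides every row together: the all-gene median is -0.11 with library totals and -0.45 with median centring.

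The antenna proteins bind most of the leaf's chlorophyll. All 9 measured genes fell, with a median log2 change of -0.41 (range -1.05 to -0.35), and their summed level was 16944 ± 1848 CPM at light 200 and 23208 ± 1547 CPM at light 100 (SD, n = 3 each). The table's KEGG names place chlorophyll a-b binding proteins P4, 7 and 8 with photosystem I and the others with photosystem II. The largest fall was that of P4 (Nitab4.5_0007189g0010, Nt22:8664153-8666436), with 325, 366 and 324 CPM at light 200 and 581, 751 and 767 CPM at light 100. Every light 200 library was below every light 100 library, and the log2 change was -1.05 ± 0.16 (SE; adjusted p = 0.00049). Protein 16 of the photosystem II antenna (Nitab4.5_0000982g0200, Nt14:109835123-109846561) had 305, 327 and 264 CPM at light 200 and 459, 557 and 569.8 CPM at light 100. These groups did not overlap either, with a log2 change of -0.82 ± 0.15 (SE; adjusted p = 0.00151). Protein 36 (Nitab4.5_0001229g0120, Nt21:69350433-69351604) had 2341, 2410.2 and 2043 CPM at light 200 and 2997, 3475 and 3641 CPM at light 100, a log2 change of -0.57 ± 0.12 (SE; adjusted p = 0.00294).

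The minor antenna proteins, which link the trimeric antenna to photosystem II, fell by less. CP29.2 (Nitab4.5_0000335g0220, Nt02:52598904-52601038) had 5999.7, 5956 and 4964 CPM at light 200 and 7035, 7705 and 7794 CPM at light 100, a log2 change of -0.41 ± 0.10 (SE; adjusted p = 0.0055). CP26 (Nitab4.5_0003757g0140) fell by 0.44 on the log2 scale. Of CP24 the table holds a pair of neighbouring genes on Nt07, which fell by 0.36 (Nitab4.5_0003434g0030) and 0.38 (Nitab4.5_0003434g0050). Of the photosystem I antenna, protein 7 (Nitab4.5_0001808g0010) fell by 0.40 and protein 8 (Nitab4.5_0002209g0120) by 0.35. Of the 9 calls, 3 held under all 17 alternatives, those of P4, 16 and 36, and with RLE factors only these 3 were called. Without light 100 replicate 2 or without light 100 replicate 3 the count was 6 of 9.

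Photosystem I passes electrons from plastocyanin to ferredoxin. All 5 of its measured subunits fell, with a median log2 change of -0.44 and summed levels of 3994 ± 406 CPM at light 200 and 5556 ± 368 CPM at light 100 (SD, n = 3 each). Subunit V, or PsaG (Nitab4.5_0001622g0160, Nt01:124276760-124277203), had 405, 439 and 365 CPM at light 200 and 659, 738 and 745 CPM at light 100. The groups were well apart, with a log2 change of -0.83 ± 0.12 (SE; adjusted p = 0.000467), and PsaG was the only member called under all 17 alternatives. Subunit II, or PsaD, which docks ferredoxin (Nitab4.5_0000043g0320, Nt14:64846643-64847266), had 497, 481 and 378 CPM at light 200 and 634, 700.3 and 622 CPM at light 100, a log2 change of -0.53 ± 0.15 (SE; adjusted p = 0.0114). PsaN (subunit N, Nitab4.5_0000673g0170) changed by -0.44, PsaL (subunit XI, Nitab4.5_0001348g0130) by -0.41 and PsaF (subunit III, Nitab4.5_0001219g0180), which binds plastocyanin, by -0.36. The call of PsaF was lost without any 1 of 5 of the 6 libraries, all but light 100 replicate 1. With RLE factors 1 of the 5 subunits was called.

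Of the 5 photosystem II genes 3 fell (60% called, against 68.3% of all 123 genes), with a median log2 change of -0.32. With RLE factors 1 did. The oxygen-evolving enhancer proteins shield the manganese cluster that splits water. Enhancer protein 3, or PsbQ (Nitab4.5_0002345g0070, Nt17:171219568-171221535), had 3807, 3975 and 3226 CPM at light 200 and 4828, 5022 and 5074 CPM at light 100, a log2 change of -0.44 ± 0.09 (SE; adjusted p = 0.00274). Enhancer protein 1, or PsbO (Nitab4.5_0000108g0110, Nt17:142208818-142210610), had 2133, 2133 and 1711 CPM at light 200 and 2444, 2784 and 2618 CPM at light 100, a log2 change of -0.39 ± 0.10 (SE; adjusted p = 0.00996). Enhancer protein 2-2, or PsbP (Nitab4.5_0005601g0020, Nt11:70600764-70603430), did not pass the test, with 1062, 1177 and 1003 CPM at light 200 and 1169, 1359 and 1287 CPM at light 100 and a log2 change of -0.23 ± 0.11 (SE; adjusted p = 0.0682). The 10 kDa polypeptide, PsbR (Nitab4.5_0000313g0040, Nt09:45558020-45561820), was the most abundant transcript of the table, at 16027 ± 1110.4 FPKM at light 200 and 19941 ± 398 FPKM at light 100 (SD, n = 3 each). It fell by 0.32 on the log2 scale (SE 0.07; adjusted p = 0.00351), the smallest standard error of the table, with 6609, 7032 and 6119.8 CPM at light 200 and 8274, 8306 and 8008 CPM at light 100. The gene listed as D2 protein (Nitab4.5_0000220g0160) had 4.33, 3.30 and 2.99 CPM at light 200 and 4.90, 3.57 and 4.58 CPM at light 100, and its groups overlapped. D2 is normally encoded in the plastid, so the identity of this nuclear-listed gene is uncertain.

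As 1 set, antenna and photosystem genes fell in 17 of 19 members and rose in 0, against 25 lower and 42 higher among the other 104 genes. Their summed level was 34271 ± 3373 CPM at light 200 and 45825 ± 2205 CPM at light 100, a difference of -11554 CPM, while the other 104 genes summed to 16646 ± 679 and 15501 ± 311 CPM (SD, n = 3 each). These 19 genes thus held more than the whole drop in the table's share of reads, which was 5.09% ± 0.40 at light 200 and 6.13% ± 0.25 at light 100. In light 200 replicate 3 all 19 were the lowest of their group, and in light 100 replicate 1 the same held for 16 of 19. Light 200 replicate 3 was also the lowest of its group for 75 of all 123 genes. Without it 14 of the 19 were called lower, without light 100 replicate 3 or light 100 replicate 2 13 were, and with RLE factors 5 were.

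Of 5 other thylakoid and plastid genes 4 fell with library totals (80% called, against 68.3% of all 123 genes). With RLE factors 0 did, and 1 did without light 100 replicate 2, light 100 replicate 3 or light 200 replicate 3. CURVATURE THYLAKOID 1B (Nitab4.5_0002053g0100), which bends the margins of grana, had 852, 832 and 699 CPM at light 200 and 1000.4, 1073 and 1154 CPM at light 100, a log2 change of -0.44 ± 0.11 (SE; adjusted p = 0.00817). A thylakoid lumenal 19 kDa protein, a plastid-lipid-associated protein and plastid transcriptionally active 16 were also called lower, by 0.39, 0.36 and 0.32 on the log2 scale (Nitab4.5_0000634g0080, Nitab4.5_0003259g0070 and Nitab4.5_0000102g0310). Each of these 3 calls was lost on leaving out any of 4 libraries in turn. SFR2, a galactolipid-remodelling enzyme of the chloroplast envelope in Arabidopsis, was not called, at 0.17 (Nitab4.5_0003135g0010), but was called higher with RLE factors.

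Protochlorophyllide reductase carries out the light-dependent step of chlorophyll synthesis, and 2 of its 3 genes fell (66.7% called, against 68.3% of all 123 genes). The gene on Nt01 (Nitab4.5_0001320g0160, Nt01:129185978-129189772) had 61.2, 85.9 and 85.7 CPM at light 200 and 115, 133 and 148 CPM at light 100, a log2 change of -0.77 ± 0.25 (SE; adjusted p = 0.0217). Its groups did not overlap, and its call was lost without light 100 replicate 3 or light 200 replicate 1. The more abundant genes on Nt02 (Nitab4.5_0000512g0200, Nt02:90418599-90421209) and Nt10 (Nitab4.5_0002526g0100, Nt10:88794747-88797325) changed by -0.31 ± 0.13 (SE; adjusted p = 0.0485) and -0.15 ± 0.15 (SE; adjusted p = 0.386). The Nt02 call lay close to the threshold and did not survive 6 of the 9 fits that left out 1 library.

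Phenylpropanoids start from phenylalanine, which phenylalanine ammonia-lyase turns into cinnamate. All 8 measured genes named for this route and its flavonoid and coumarin branches rose, with a median log2 change of 0.94 and summed levels of 2400 ± 334 CPM at light 200 and 1237 ± 86.3 CPM at light 100 (SD, n = 3 each). All 8 had no overlap between groups, and 7 were called under all 17 alternatives. The phenylalanine ammonia-lyase gene on Nt02 (Nitab4.5_0000101g0270, Nt02:4274470-4278549) had 639, 568 and 442 CPM at light 200 and 241, 277 and 273 CPM at light 100, a log2 change of 1.06 ± 0.16 (SE; adjusted p = 0.000496). The gene of the same name on Nt24 (Nitab4.5_0000754g0260) had 874, 661 and 560.3 CPM at light 200 and 439, 374 and 389 CPM at light 100, a log2 change of 0.80 ± 0.16 (SE; adjusted p = 0.00294). Both copies thus rose, and every light 200 library was above every light 100 library for each.

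Chalcone isomerase closes the central ring of flavonoids, an activity that was not measured here for either gene of that name. Chalcone isomerase 3, named as probable in the table (Nitab4.5_0000375g0270, Nt13:11234714-11237111), had 247, 294 and 247 CPM at light 200 and 81.1, 129 and 93.9 CPM at light 100, a log2 change of 1.38 ± 0.25 (SE; adjusted p = 0.00151). Its Nt24 relative, plain chalcone isomerase (Nitab4.5_0000027g0470, Nt24:109075142-109077641), had 232, 208 and 174 CPM at light 200 and 99.6, 148 and 95.3 CPM at light 100, a log2 change of 0.84 ± 0.20 (SE; adjusted p = 0.00587). In both, light 100 replicate 2 was the highest library of its group and still below all light 200 libraries. Naringenin,2-oxoglutarate 3-dioxygenase, the flavanone hydroxylase that leads to dihydroflavonols (Nitab4.5_0000864g0050, Nt17:205873881-205875531), had 116, 109 and 95.6 CPM at light 200 and 38.4, 58.4 and 40.1 CPM at light 100. This was a log2 change of 1.23 ± 0.18 (SE; adjusted p = 0.00049), or a 2.34-fold level. Flavonol synthase (Nitab4.5_0005357g0020, Nt12:40715554-40722943), which makes flavonols from dihydroflavonols, had 525, 498 and 452 CPM at light 200 and 245, 288 and 230.2 CPM at light 100, a log2 change of 0.95 ± 0.14 (SE; adjusted p = 0.00049).

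Feruloyl CoA ortho-hydroxylase 1 (Nitab4.5_0002567g0090, Nt18:31904946-31907518) opens the branch to scopoletin and other coumarins. It had 25.4, 29.7 and 31.9 CPM at light 200 and 15.7, 14.7 and 15.5 CPM at light 100, a log2 change of 0.92 ± 0.16 (SE; adjusted p = 0.00145). The SD was 3.32 CPM at light 200 and 0.534 CPM at light 100, so most of the spread was among light 200 libraries. Flavone 3'-O-methyltransferase 1 (Nitab4.5_0000725g0060), which methylates flavonoids and caffeate derivatives in Arabidopsis, had the smallest rise of the group, at 0.46 ± 0.14 (SE; adjusted p = 0.0159) on the log2 scale, and its call was lost without light 100 replicate 3 or light 200 replicate 1.

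Sugar and acyl groups are added to flavonoids late in their synthesis. Of 7 glycosyl- and acyltransferase genes 5 rose and 0 fell (71.4% called, against 68.3% of all 123 genes), with a median log2 change of 0.52. The libraries of the 2 intensities overlapped for 3 of the 7. Only the anthocyanidin glucosyltransferases and the anthocyanin acyltransferase are named for flavonoids, and what the products of the others act on was not measured. The anthocyanidin 3-O-glucosyltransferase on Nt19 (Nitab4.5_0000403g0080, Nt19:35855585-35857000) had 176, 151 and 116 CPM at light 200 and 42.5, 57.4 and 39.9 CPM at light 100. The lowest light 200 library was above the highest light 100 library, and the log2 change of 1.67 ± 0.23 (SE; adjusted p = 0.000467) was the largest rise in the table after that of berberine bridge enzyme-like 8. Its namesake on Nt05 (Nitab4.5_0001043g0030, Nt05:77278642-77279973) had 78.4, 77.9 and 63.1 CPM at light 200 and 21.6, 38.6 and 25.9 CPM at light 100, a log2 change of 1.35 ± 0.22 (SE; adjusted p = 0.000747). Both calls held under all 17 alternatives.

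Of the other 5 members 3 were called, and each of these calls was lost on leaving out any 1 of light 100 replicate 1, light 100 replicate 3 and light 200 replicate 1. UDP-glycosyltransferase 86A1 (Nitab4.5_0003524g0010, Nt24:28269879-28270736) had 35.5, 35.9 and 20.2 CPM at light 200 and 13.4, 23.6 and 14.6 CPM at light 100, a log2 change of 0.83 ± 0.28 (SE; adjusted p = 0.0262). Its groups overlapped through light 200 replicate 3 and light 100 replicate 2. Its call was also lost without light 200 replicate 2. Anthocyanin 5-aromatic acyltransferase (Nitab4.5_0001256g0060, Nt23:109984197-109985555) had 37.4, 31.7 and 29.9 CPM at light 200 and 22.5, 27.3 and 22.6 CPM at light 100, a log2 change of 0.45 ± 0.15 (SE; adjusted p = 0.0227). Of the UDP-glycosyltransferase 74E2 pair, the gene on Nt20 (Nitab4.5_0002356g0020) was called at 0.50. The more abundant one on Nt15 (Nitab4.5_0001704g0090) was not, with 572, 488 and 325 CPM at light 200 and 274, 465 and 374 CPM at light 100. A putative rhamnosyltransferase (Nitab4.5_0000200g0190) had 732, 630.1 and 416 CPM at light 200 and 305, 507 and 432 CPM at light 100, and its log2 change of 0.52 had a 95% interval of -0.11 to 1.15. Light 100 replicate 2 was the highest of its group for all 7 genes, and light 200 replicate 3 the lowest of its group for 6. With the authors' factors 3 of the 7 were called and with median centring 2.

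**Figure D3:**
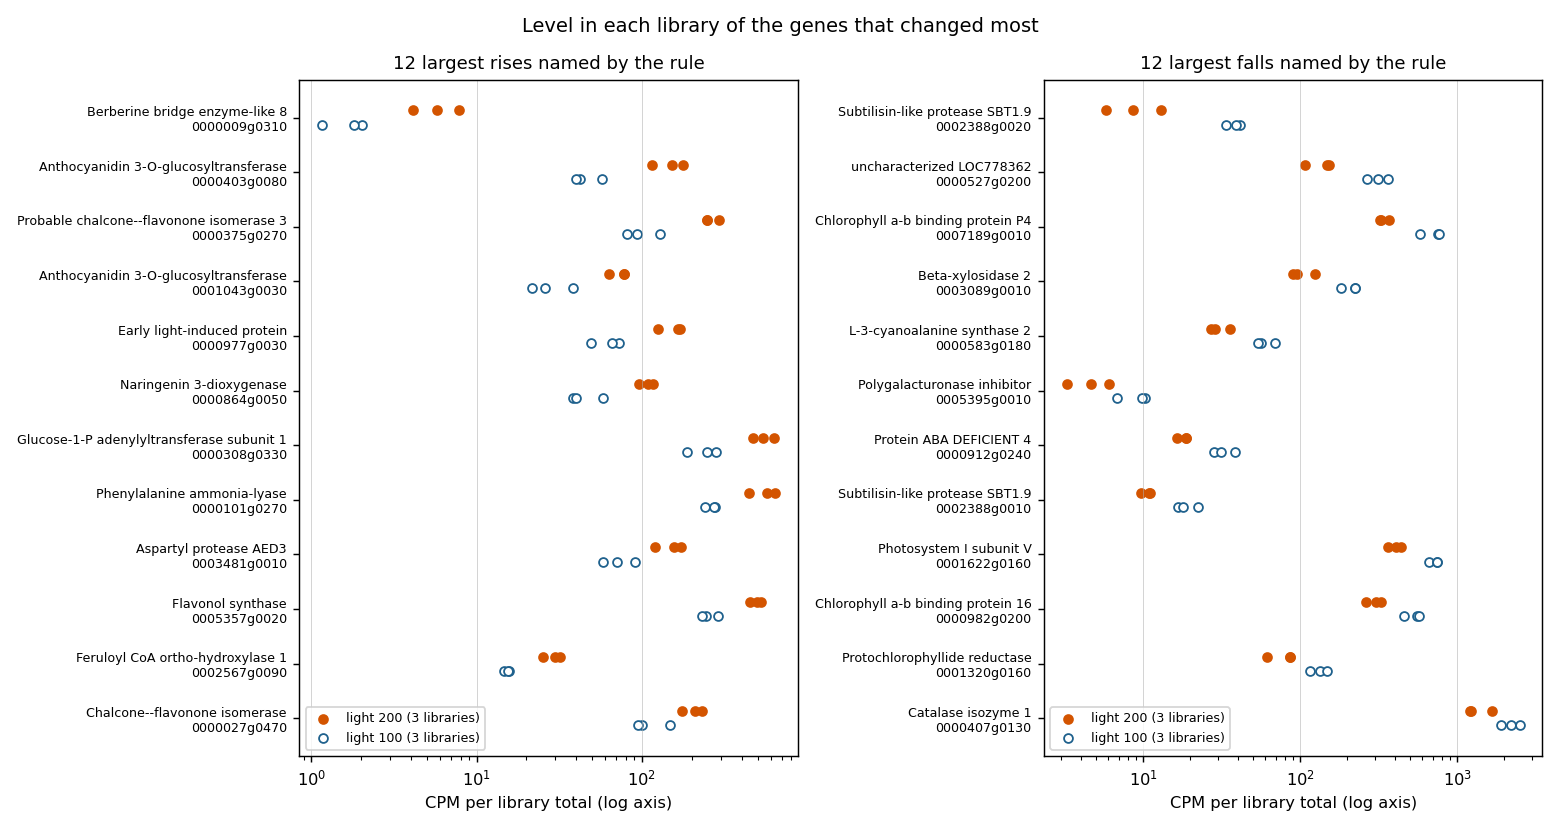
CPM per library (log axis) of 12 called genes with the largest rises (left) and 12 with the largest falls (right), all without overlap between groups and with at least 5 CPM in the higher group, light 200 filled and light 100 open, 3 libraries each. In each row all light 200 libraries lie to 1 side of all light 100 libraries, with the widest gap for the SBT1.9 gene at the top right.

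Starch is built in the chloroplast by day and broken down at night. All 5 measured starch genes rose, with a median log2 change of 0.53 and summed levels of 1747 ± 149 CPM at light 200 and 1048 ± 114 CPM at light 100 (SD, n = 3 each). The large subunit of glucose-1-phosphate adenylyltransferase (Nitab4.5_0000308g0330, Nt19:76942735-76946994), the enzyme that makes ADP-glucose, had 631, 542 and 469 CPM at light 200 and 246, 279.8 and 187 CPM at light 100. Its groups were far apart, with a log2 change of 1.203 ± 0.18 (SE; adjusted p = 0.00049), and the call held under all 17 alternatives. Granule-bound starch synthase 2 (Nitab4.5_0002980g0050, Nt03:90247218-90253959) had 305, 289 and 196 CPM at light 200 and 125, 195 and 147 CPM at light 100, a log2 change of 0.76 ± 0.21 (SE; adjusted p = 0.0117). The highest light 100 library all but reached the lowest light 200 library, and the call was lost without light 100 replicate 3.

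Genes of starch breakdown rose with those of its synthesis. The plastid alpha-1,4 glucan phosphorylase (Nitab4.5_0000154g0300, Nt14:87040991-87050128) had 871, 754 and 876 CPM at light 200 and 603, 602 and 524 CPM at light 100, a log2 change of 0.53 ± 0.14 (SE; adjusted p = 0.00817). DPE2 (Nitab4.5_0001388g0020), the glucanotransferase that uses maltose in the cytosol, was at 0.47, and LSF1 (Nitab4.5_0004348g0040), a plastid starch-binding protein, at 0.37. Both lost their calls without light 100 replicate 3 or light 200 replicate 1, among other libraries. With median centring 1 of the 5 starch genes was called, and with the authors' factors 3 were.

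The distance between groups of genes inside a library does not depend on how that library is scaled. The mean log2 CPM of the 8 phenylpropanoid genes minus that of the 19 antenna and photosystem genes was -2.22, -2.30 and -2.22 at light 200 and -3.68, -3.55 and -3.82 at light 100. The means differed by 1.44, and the nearest libraries of the 2 intensities were 1.26 apart. All 8 genes were called higher and all 19 had negative changes with library totals, so the direction of this difference was set beforehand. It is no separate support for those calls, and the same holds for the starch genes. For the 5 starch genes the same distance was -2.20 ± 0.082 at light 200 and -3.34 ± 0.19 at light 100 (SD, n = 3 each), a difference of 1.15. The low antenna levels of light 200 replicate 3 went with low phenylpropanoid levels in that library, for which it was the lowest of its group in 7 of 8 genes, yet its distance of -2.22 matched that of light 200 replicate 1.

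**Figure D4:**
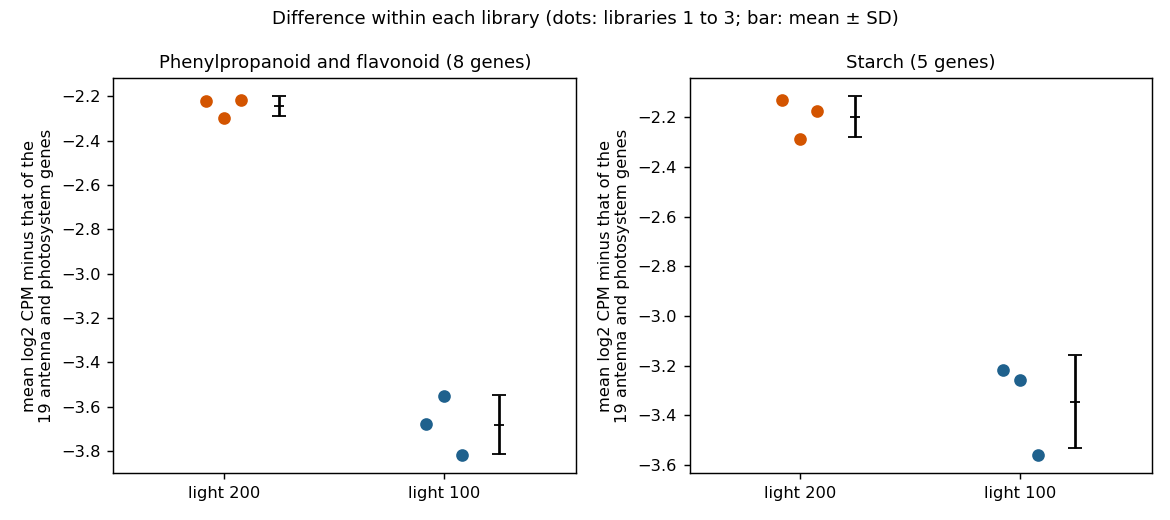
Mean log2 CPM of 8 phenylpropanoid genes (left) and 5 starch genes (right) minus the mean of 19 antenna and photosystem genes, in each light 200 and light 100 library. Dots are libraries and bars are means ± SD (n = 3), and in both panels all light 200 libraries lie above all light 100 libraries. The direction was set by the changes of these same genes.

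Photoprotective and peroxide-removing genes went in different directions. Early light-induced protein (Nitab4.5_0000977g0030, Nt14:113456482-113458425), a chlorophyll-binding relative of the antenna proteins made under excess light, had 125, 169 and 166 CPM at light 200 and 49.5, 73.0 and 65.5 CPM at light 100. This 2.45-fold rise had a log2 change of 1.29 ± 0.17 (SE; adjusted p = 0.000467) and held under all 17 alternatives. Catalase isozyme 1 (Nitab4.5_0000407g0130, Nt15:32215057-32219226), which removes the hydrogen peroxide of photorespiration, fell in the same leaves, with 1199.8, 1221 and 1671 CPM at light 200 and 2503, 1909.7 and 2215 CPM at light 100. Its log2 change was -0.70 ± 0.15 (SE; adjusted p = 0.0044), again under all 17 alternatives. Zeaxanthin epoxidase (Nitab4.5_0002016g0120, Nt17:145236523-145243444), which returns zeaxanthin to violaxanthin, had 691, 725 and 697 CPM at light 200 and 800.1, 838 and 862 CPM at light 100. Its groups did not overlap, but its log2 change of -0.24 ± 0.10 (SE; adjusted p = 0.0525) missed the threshold, and it was called lower with the authors' factors and with median centring.

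Of 4 hormone-related enzymes 2 were called higher and 0 lower (50% called, against 68.3% of all 123 genes). With the authors' factors 1 was called higher, and with median centring 0 were. ACC oxidase (Nitab4.5_0000091g0420, Nt14:98536509-98538581), which forms ethylene, had 589.8, 519.9 and 473 CPM at light 200 and 346, 384 and 330.1 CPM at light 100, a log2 change of 0.58 ± 0.14 (SE; adjusted p = 0.00621). An ACC oxidase homolog (Nitab4.5_0002015g0090, Nt08:104191845-104195175) had 81.9, 84.4 and 79.8 CPM at light 200 and 126, 91.0 and 57.4 CPM at light 100. The light 200 libraries of this homolog lay inside the wide range of its light 100 libraries, and it was not called. In KEGG it is named only as a 2-oxoglutarate-dependent dioxygenase. Linoleate 9S-lipoxygenase 5 (Nitab4.5_0000137g0100), of oxylipin synthesis, was called at 0.42 ± 0.15 (SE; adjusted p = 0.0287) on the log2 scale, but in only 5 of the 9 fits without 1 library. GH3.10 (Nitab4.5_0002370g0050) changed by 0.22 with overlapping groups. Swiss-Prot names it as an enzyme that conjugates amino acids to auxin, and KEGG as a JAR1-like enzyme that conjugates them to jasmonic acid.

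Among isoprenoid genes, geranylgeranyl pyrophosphate synthase (Nitab4.5_0000110g0240), which feeds carotenoids and the chlorophyll tail, was called higher at 0.44, a call lost with the authors' factors, with median centring and without any 1 of 4 libraries. The other 3 fell. ABA DEFICIENT 4 (Nitab4.5_0000912g0240, Nt17:208018906-208020123), needed for neoxanthin synthesis in Arabidopsis, had 18.8, 16.4 and 18.9 CPM at light 200 and 28.1, 31.5 and 38.7 CPM at light 100, a log2 change of -0.86 ± 0.24 (SE; adjusted p = 0.0125). Xanthoxin dehydrogenase (Nitab4.5_0002812g0020), of abscisic acid synthesis, changed by -0.47, and its call failed in 5 of the 9 fits that left out 1 library. The gene named as strigolactone esterase D14 in Swiss-Prot and as KAI2 in KEGG (Nitab4.5_0002038g0020) had only 2.53, 2.67 and 1.68 CPM at light 200 and 3.83, 4.15 and 5.06 CPM at light 100, a log2 change of -0.93 ± 0.27 (SE; adjusted p = 0.0157). Without light 100 replicate 3 none of these 4 genes was called.

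Of 6 transporter genes 5 were called higher and 0 lower (83.3% called, against 68.3% of all 123 genes), with a median log2 change of 0.40. Without light 200 replicate 3, 1 was called lower. A sulfate transporter and a sulfite exporter, neither of them called, were sorted with the sulfur genes below and are not in this count. With the authors' factors 2 were called higher, with median centring 1, and 2 on leaving out either light 100 replicate 3 or light 200 replicate 1. Aquaporin PIP2-1 (Nitab4.5_0000101g0120, Nt02:3484610-3486224), a water channel of the plasma membrane, had 117, 117 and 87.9 CPM at light 200 and 44.9, 79.7 and 56.7 CPM at light 100, a log2 change of 0.83 ± 0.21 (SE; adjusted p = 0.00817), and was called under all 17 alternatives. Aquaporin PIP1-2 (Nitab4.5_0000737g0120, Nt04:88688582-88690152) had 139, 175 and 130.2 CPM at light 200 and 92.4, 113 and 68.2 CPM at light 100, a log2 change of 0.70 ± 0.19 (SE; adjusted p = 0.00999). Both pairs of groups were separate, although the top light 100 library of each was light 100 replicate 2. ABC transporter C family member 14 (Nitab4.5_0002469g0080) rose by 0.37, and plastid cotransporters BASS3 (Nitab4.5_0000038g0160) and BASS1 (Nitab4.5_0000667g0060) rose by 0.37 and 0.44 on the log2 scale. All 3 lost their calls without light 100 replicate 3 and without light 200 replicate 1. ERD4 (Nitab4.5_0000315g0120), listed as CSC1-like, was scattered, with 22.03, 25.5 and 62.2 CPM at light 200 and 75.0, 31.7 and 62.0 CPM at light 100.

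Carbon and nitrogen genes were mixed. The plastid pyruvate kinase isozyme A (Nitab4.5_0000772g0060, Nt19:90843089-90846991), of glycolysis, had 61.2, 51.6 and 44.5 CPM at light 200 and 32.5, 33.9 and 28.4 CPM at light 100, a log2 change of 0.73 ± 0.20 (SE; adjusted p = 0.00999). The plastid dehydrogenase GAPCP2 (Nitab4.5_0003777g0020) was called higher at 0.50 and CP12-3 (Nitab4.5_0009514g0050), a Calvin cycle protein, lower at -0.40. The CP12-3 call failed in 7 of the 9 fits that left out 1 library. Rubisco activase 1 (Nitab4.5_0004475g0020, Nt05:14483247-14485034) had 35.3, 37.2 and 39.0 CPM at light 200 and 40.0, 50.1 and 46.0 CPM at light 100, without overlap but with a log2 change of -0.29 ± 0.13 (SE; adjusted p = 0.0598). Glutamine synthetase (Nitab4.5_0001650g0160) changed by 0.18 ± 0.19 (SE; adjusted p = 0.404). Acetyl-CoA carboxylase 1 (Nitab4.5_0000469g0180, Nt12:85690386-85703883), which makes malonyl-CoA for fatty acids and flavonoids, rose, with 255, 220.4 and 243 CPM at light 200 and 165, 160.0 and 192 CPM at light 100 and a log2 change of 0.47 ± 0.12 (SE; adjusted p = 0.00939).

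Of the remaining metabolic genes, 7 of 14 including acetyl-CoA carboxylase were called higher and 1 lower (57.1% called, against 68.3% of all 123 genes). Their median log2 change was 0.26. Nudix hydrolase 19 (Nitab4.5_0000106g0230) was at 0.64, AFG1-like ATPase (Nitab4.5_0000109g0260) at 0.56, aspartate racemase (Nitab4.5_0002257g0010) at 0.49, cytochrome c (Nitab4.5_0000903g0070) at 0.45 and alcohol dehydrogenase 1 (Nitab4.5_0000270g0270) at 0.44. The summed level of all 14 genes was 1569 ± 2.80 CPM at light 200 and 1379 ± 36.3 CPM at light 100 (SD, n = 3 each). The small SD at light 200 hides opposite deviations of single members. Nudix hydrolase 19 had 100, 113 and 128 CPM at light 200. Light 200 replicate 3 was the highest of its group for 5 of the 14 genes and the lowest for 6. The 1 gene called lower was sorbitol dehydrogenase (Nitab4.5_0001146g0200), at -0.41. A 3-hydroxyisobutyryl-CoA hydrolase-like gene (Nitab4.5_0001232g0070) was called higher at 0.34. Not called were fumarylacetoacetase (Nitab4.5_0001198g0060), betaine aldehyde dehydrogenase 1 (Nitab4.5_0002101g0060), 2-isopropylmalate synthase A (Nitab4.5_0000122g0020) and purple acid phosphatase 26 (Nitab4.5_0002267g0060), with log2 changes of 0.18, 0.16, 0.13 and -0.11. Nicotinamidase 2 (Nitab4.5_0000069g0350), of NAD turnover, changed by -0.47 with groups that overlapped at their edges, and it was not called. Thioredoxin-like CXXS1 (Nitab4.5_0002345g0090) had 26.6, 41.8 and 56.8 CPM at light 200 and 60.8, 52.8 and 62.2 CPM at light 100, the light 200 libraries being more scattered, and was not called. With median centring 0 of these 14 were called higher and 4 lower, with the authors' factors 3 and 2, and 3 and 0 on leaving out either light 100 replicate 3 or light 200 replicate 2.

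Among 5 sulfur genes 1 was called (20%, against 68.3% of all 123 genes), mitochondrial L-3-cyanoalanine synthase/cysteine synthase 2. It detoxifies cyanide, a by-product of ethylene synthesis, and its gene (Nitab4.5_0000583g0180, Nt19:96394531-96399644) had 28.7, 35.9 and 27.0 CPM at light 200 and 69.6, 56.5 and 53.7 CPM at light 100, a log2 change of -0.97 ± 0.17 (SE; adjusted p = 0.00145) that held under all 17 alternatives. The plastid cysteine synthase (Nitab4.5_0000013g0360) changed by 0.03 ± 0.13 (SE; adjusted p = 0.82). Thiosulfate sulfurtransferase 16 (Nitab4.5_0001696g0140, Nt17:202729575-202731104) had 48.5, 69.8 and 225 CPM at light 200 and 194, 136 and 228 CPM at light 100. Light 200 replicate 3 was at the light 100 level and the other light 200 libraries were far below it, so that the 95% interval of the log2 change was -1.77 to 0.37. Sulfate transporter 3.1 (Nitab4.5_0000678g0050) and a TauE/SafE family sulfite exporter (Nitab4.5_0000052g0160) were not called either, at 0.16 and 0.20.

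Cell wall genes were divided. Beta-xylosidase/alpha-L-arabinofuranosidase 2 (Nitab4.5_0003089g0010, Nt07:28866305-28871027), which trims xylan and arabinan side chains, had 95.5, 124 and 89.6 CPM at light 200 and 224, 223 and 182 CPM at light 100. The groups did not overlap, and the log2 change of -1.03 ± 0.17 (SE; adjusted p = 0.000902) held under all 17 alternatives. A polygalacturonase inhibitor (Nitab4.5_0005395g0010, Nt06:11587206-11588222), of a family that blocks pectin-degrading enzymes of fungi, had 3.26, 4.63 and 6.04 CPM at light 200 and 10.3, 6.77 and 9.88 CPM at light 100, a log2 change of -0.95 ± 0.29 (SE; adjusted p = 0.0169). Its call was lost without light 100 replicate 3 or light 200 replicate 1. An extensin (Nitab4.5_0001049g0140), a structural wall protein, and the tubulin beta-1 chain (Nitab4.5_0001951g0080) fell by 0.69 and 0.45, each call failing in 5 of the 9 fits that left out 1 library. Called higher were a glucan endo-1,3-beta-glucosidase (Nitab4.5_0001170g0190, Nt17:181215118-181218356), with 79.2, 79.3 and 84.5 CPM at light 200 and 63.9, 55.0 and 48.8 CPM at light 100, and the beta-glucosidase BoGH3B on Nt08 (Nitab4.5_0001505g0020, Nt08:57413243-57418070), with 139, 138 and 123 CPM at light 200 and 99.5, 91.9 and 80.3 CPM at light 100. The BoGH3B gene on Nt13 (Nitab4.5_0000010g0130) changed by 0.19 and alpha-glucosidase 2 (Nitab4.5_0000030g0360) by 0.33, and neither was called. With median centring 0 of the 8 genes were called higher, and 1 was called lower without light 100 replicate 3.

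Proteases and stress-named genes held the steepest fall of the table. Subtilisin-like protease SBT1.9 on Nt22 (Nitab4.5_0002388g0020, Nt22:90722090-90724390) had 13.05, 8.63 and 5.79 CPM at light 200 and 41.5, 39.1 and 33.7 CPM at light 100. It was 4.17-fold lower, with a log2 change of -2.06 ± 0.25 (SE; adjusted p = 0.000467). Its neighbour of the same name on the other strand (Nitab4.5_0002388g0010, Nt22:90755571-90757916) had 10.9, 9.75 and 11.1 CPM at light 200 and 22.3, 16.7 and 17.9 CPM at light 100, a log2 change of -0.85 ± 0.18 (SE; adjusted p = 0.00351). Both falls held under all 17 alternatives, and the difference between these neighbours was not tested. FKBP17-2 (Nitab4.5_0008639g0010, Nt06:121190529-121192273), of a chloroplast family of peptidyl-prolyl isomerases, was low, with 1.997, 2.46 and 1.68 CPM at light 200 and 4.63, 5.82 and 4.52 CPM at light 100, and its log2 change was -1.29 ± 0.28 (SE; adjusted p = 0.00376).

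The 1 member called higher was aspartyl protease AED3 (Nitab4.5_0003481g0010, Nt19:104058960-104061332), an apoplastic protease in Arabidopsis. It had 156, 172 and 120.0 CPM at light 200 and 57.9, 91.2 and 70.7 CPM at light 100, a log2 change of 1.03 ± 0.33 (SE; adjusted p = 0.0217), and the call was lost without light 100 replicate 1, light 100 replicate 3, light 200 replicate 1 or light 200 replicate 2. TLD domain-containing protein 1 (Nitab4.5_0001988g0020) was called lower at -0.61, with overlapping groups and a call that failed in 7 of the 9 fits that left out 1 library. A KIN2-like gene (Nitab4.5_0003384g0010) was decided by single libraries, with 3.06, 6.31 and 3.11 CPM at light 200 and 4.23, 15.3 and 4.64 CPM at light 100. Replicate 2 was the highest at both intensities, and the 95% interval of the log2 change was -2.03 to 0.13. The rest were not called: an MLP-like protein (Nitab4.5_0001474g0070) at 0.48, DRT100 (Nitab4.5_0000213g0030) at 0.12, protease Do-like 8 (Nitab4.5_0000274g0150) at -0.08 and CYP38 (Nitab4.5_0003337g0100), an isomerase needed for photosystem II assembly in Arabidopsis, at -0.28.

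Few signalling genes were called, 25% against 68.3% of all 123 genes. Of the 8, 1 was higher, transcription factor UNE12 (Nitab4.5_0000187g0130) at 0.36, and 1 lower, multiprotein-bridging factor 1b (Nitab4.5_0000383g0170) at -0.51. Both calls were lost without light 100 replicate 1, light 100 replicate 3 or light 200 replicate 1. With the authors' factors 0 were higher and 3 lower, with median centring 0 and 5, and with RLE factors 2 and 0. The pair of SIS8 kinase genes (Nitab4.5_0001986g0060 and Nitab4.5_0004028g0050) changed by -0.21 and -0.32, the kinase STY17 (Nitab4.5_0001696g0100) by -0.15 and a G3BP-like protein (Nitab4.5_0000355g0030) by 0.22, none of them called. Tetraspanin-8 (Nitab4.5_0002587g0080) had 27.3, 24.1 and 39.5 CPM at light 200 and 57.6, 37.1 and 43.2 CPM at light 100, with overlapping groups. Tetraspanin-3 (Nitab4.5_0000888g0160), a membrane protein, had the largest p of the table, with 28.6, 26.2 and 26.8 CPM at light 200 and 29.4, 26.9 and 26.8 CPM at light 100 and a log2 change of -0.03 ± 0.15 (SE; adjusted p = 0.872). The 95% interval of that change was -0.36 to 0.31.

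Genes without a clear class held some of the largest changes. Berberine bridge enzyme-like 8 (Nitab4.5_0000009g0310, Nt04:115566148-115569167), of a family of oxidases that includes members acting in nicotine synthesis, had 7.79, 4.14 and 5.73 CPM at light 200 and 2.02, 1.16 and 1.81 CPM at light 100. It had the largest log2 rise of the table, 1.82 ± 0.34 (SE; adjusted p = 0.00167), at counts as low as 16 reads in a library. The gene annotated only as uncharacterized LOC778362 (Nitab4.5_0000527g0200, Nt24:30964364-30965360) had 108, 149 and 153 CPM at light 200 and 314, 265 and 363 CPM at light 100, a log2 change of -1.203 ± 0.17 (SE; adjusted p = 0.000467). These 2 calls held under all 17 alternatives. A non-specific lipid-transfer protein (Nitab4.5_0000125g0030) had 14.05, 18.4 and 18.0 CPM at light 200 and 26.8, 23.7 and 29.8 CPM at light 100, a log2 change of -0.67 ± 0.19 (SE; adjusted p = 0.0116). The gene listed as LOC101260668 (Nitab4.5_0000578g0110) was called higher at 0.65, and its light 200 libraries were nearly identical, with 177, 176 and 177 CPM at light 200 and 89.4, 129 and 120.3 CPM at light 100. Its call was lost with the authors' factors, with median centring and without any 1 of the 6 libraries but light 100 replicate 2. The lipid-transfer protein call was lost without light 100 replicate 3. LOC101253079 (Nitab4.5_0000083g0050) was called lower at -0.30, a call that failed on leaving out any 1 of the 6 libraries and with TMM or RLE factors. LOC101257023 (Nitab4.5_0000980g0350) and LOC101252852 (Nitab4.5_0002540g0040) changed by 0.04 and -0.16 and were not called, nor were the epidermis-specific glycoprotein EP1 (Nitab4.5_0000246g0290) and an alpha/beta-hydrolase (Nitab4.5_0001725g0120), at -0.57 and -0.43.

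The doubling below this one, from light 50 to light 100, shares the light 100 libraries, so the changes of the 2 doublings are not independent. Whether they differ was tested as the log2 change of the second doubling minus that of the first. The test called 5 of 123 genes (4.07%), all with a negative difference, and 21 had an unadjusted p under 0.05. UDP-glycosyltransferase 86A1 averaged 0.88 ± 0.31, 17.2 ± 5.62 and 30.5 ± 8.95 CPM at light 50, 100 and 200 (SD, n = 3 each). Its log2 change was 0.83 in the second doubling and 4.30 in the first, a difference of -3.47 (adjusted p = 0.00612). ACC oxidase averaged 94.1 ± 12.1, 354 ± 27.9 and 528 ± 58.9 CPM, a difference of -1.33 (adjusted p = 0.00802). Both rose in each doubling, by less in the second.

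Anthocyanin 5-aromatic acyltransferase averaged 7.22 ± 0.27, 24.1 ± 2.72 and 33.0 ± 3.92 CPM at light 50, 100 and 200, a difference of -1.29 (adjusted p = 0.0154). SFR2 averaged 114 ± 7.91, 225 ± 6.36 and 254 ± 11.2 CPM, and the ACC oxidase homolog 28.6 ± 9.14, 91.4 ± 34.2 and 82.0 ± 2.33 CPM (SD, n = 3 each). Their differences were -0.81 and -1.84 (adjusted p = 0.0496 for each). The count depended on the scaling and on single libraries: it was 23 with TMM, 2 with RLE, 14 without light 50 replicate 1 and 1 without light 100 replicate 2. With DESeq2 it was 11. The other 118 genes were not called with library totals.

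**Figure D5:**
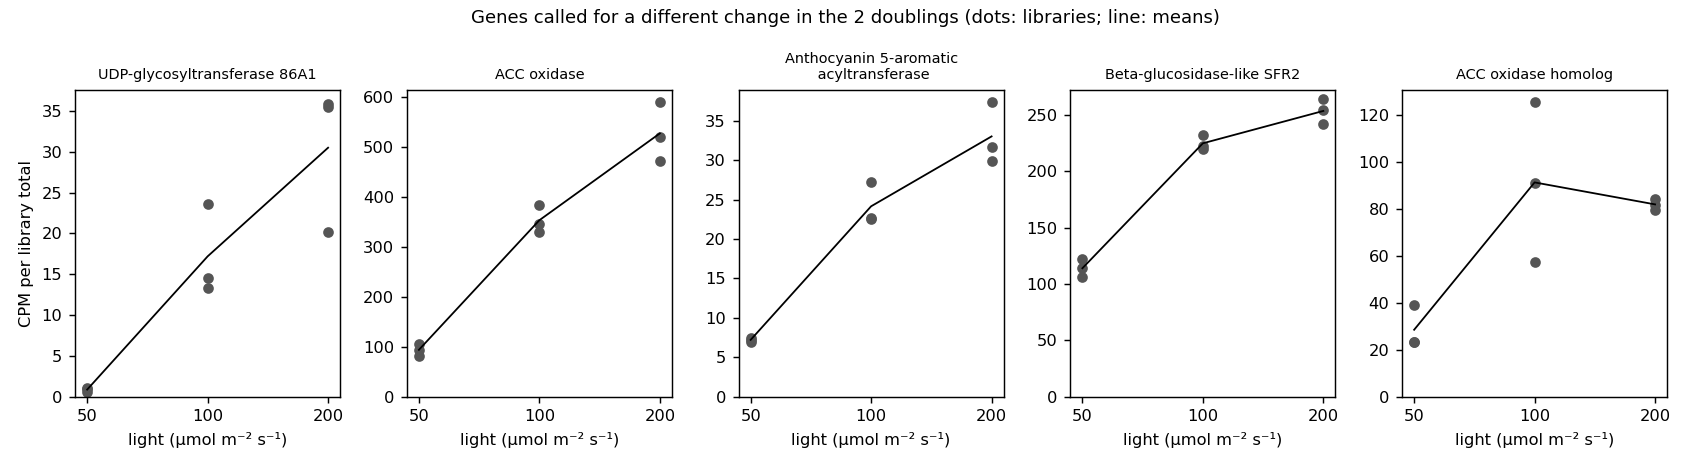
CPM of the 5 genes called for a difference between the doublings, at light 50, 100 and 200 µmol m-2 s-1 (equal steps stand for equal ratios of light). Dots are libraries and lines join group means, which climb more steeply below light 100 than above it, and for the ACC oxidase homolog do not climb above it.

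The authors' deposited table gives its own test of the same libraries, with log2 values that run light 100 over light 200. It marks 14 genes as higher (11.4%) and 25 as lower (20.3%) at light 200. All 14 are among the 42 called higher here and all 25 among the 42 called lower, and 121 of 123 log2 values have the same sign once turned round. The numbers are not at a like threshold, since the adjustment here is over 123 genes and the authors' is stricter. The scaling and the test differ as well. With the authors' size factors, edgeR here called 26 genes higher and 48 lower. In the authors' test the steepest-falling SBT1.9 gene had a p of 6.17e-27 and an adjusted p of 1.88e-22. The Nt24 phenylalanine ammonia-lyase, called here under all 17 alternatives, is not marked there, with an authors' adjusted p of 0.249. Its unadjusted p was 0.00748 in the authors' test and 0.000477 by edgeR with library totals here.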

How the data were processed

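Leaf RNA of 9 samples of cigar tobacco was sequenced from NEBNext Ultra RNA libraries, per the labels' protocols. This kit does not mark strand, so overlapping and antisense genes share reads. Near-identical gene copies, frequent in an allotetraploid, can also share them, so values of single members of pairs such as the phenylalanine ammonia-lyases are uncertain. CASAVA 1.7, HISAT and HTSeq are named in the submitters' processing notes, and no source used here gives the genome build. Coordinates are those of the table.

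The deposited table holds raw read counts and FPKM values per gene and library, per the file headers. It also holds, per the file headers, the authors' mean normalised counts (a score: counts divided by their size factors), log2 fold changes and p-values for each pair of groups.

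Each library's total followed from the ratio of count to FPKM times length. The test was edgeR's two-sided quasi-likelihood F-test (version 4.0.16, R 4.3.3), with these totals as library sizes, group as the only factor, all 9 libraries, no filter, and Benjamini-Hochberg adjustment over 123 genes at 0.05. Log2 changes are light 200 over light 100, without shrinkage, and intervals are at 95%. Alternatives were 4 other scalings, DESeq2 1.42.0, filterByExpr, the 6 libraries alone, a replicate block and leaving out each library.

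Product names are Swiss-Prot's for 115 genes and KEGG's for 8. The reference gene table matched 0 identifiers, so no sequence is shown. Genes were sorted by hand into 19 role groups. The text names the 12 largest rises and falls (called, no overlap, at least 5 CPM in the higher group), up to 4 genes of smallest p per list, members of lists of up to 10 genes, genes called for a difference between doublings, and the most abundant and least changed genes. Others, chosen after their values were seen, are named so that role groups are complete. Comparison, lists and groups were chosen with earlier results of these data known.

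Libraries of a group were compared by chi-square, which was 23.6 to 95.4 times its degrees of freedom at light 200 and light 100, so none was counted as a duplicate. Intervals and tests rest on 3 libraries per group, for which an exact permutation test cannot go below p = 0.1.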

Additional observations from a re-analysis of the deposited data

Results flagged for a closer look

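For 5 genes the change from light 100 to light 200 differed from the change from light 50 to light 100 by the test of the difference itself (edgeR, adjusted over 123 genes). The difference, second doubling minus first on the log2 scale, was -3.47 for UDP-glycosyltransferase 86A1 (Nitab4.5_0003524g0010), -1.33 for ACC oxidase (Nitab4.5_0000091g0420), -1.29 for anthocyanin 5-aromatic acyltransferase (Nitab4.5_0001256g0060), -0.81 for SFR2 (Nitab4.5_0003135g0010) and -1.84 for the ACC oxidase homolog (Nitab4.5_0002015g0090). The adjusted p was 0.0496 for the last pair, next to the threshold. UDP-glycosyltransferase 86A1 was near its floor at light 50, where 1 library held 8 reads.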

How the results depend on the processing

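The counts of 42 genes higher, 42 lower and 5 that differed between the doublings moved as follows. With the authors' size factors 26 were higher and 3 differed between the doublings, with median centring 14 were higher, with RLE 17 were lower and 2 differed, with TMM 23 differed, and with DESeq2 on library totals 11 differed. Leaving out 1 library gave 22 to 43 higher, 21 to 44 lower and 1 to 14 that differed between the doublings. The cause of these moves was not tested. With the replicate number as a block 38 were higher, 33 lower and 7 differed between the doublings. Same-numbered libraries of light 200 and light 100 had correlations of -0.187, 0.550 and 0.196 in their deviations from the group means, so the numbers were not taken to pair the samples. No called gene changed sign under any of the 17 alternatives. With 3 libraries per group, 95% intervals were over 1 log2 unit wide for several genes near 5 CPM and for those where 1 library stands apart. Some more abundant genes had such intervals too. For AED3, at 73.3 CPM at light 100 and 149 CPM at light 200, the interval was 0.30 to 1.75. What read depth had to do with these widths was not tested.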
